A study of Mus musculus with 6 samples.

Results

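The immunoglobulin heavy variable (Ighv) genes were examined, taken as every row of the gene count table whose symbol begins with Ighv, which gave 183 of 49568 rows. Whole lungs came from female C57BL/6 mice of 4 months, 3 TNF+ and 3 TNF- littermates, and each lung was sequenced in bulk. TNF+ mice (TNF-Tg) carry a human TNF transgene and develop joint and lung disease, and TNF- mice are their wild-type littermates without the transgene. Single-end reads of poly(A) RNA were assigned to genes, and the table held between 25396923 and 32529408 counts per lung. The comparison asks which heavy chain variable genes the lung RNA of TNF+ mice carried, and whether a few segments dominated it.

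Each developing B cell joins 1 variable, 1 diversity and 1 joining segment of the heavy chain locus, so a B cell and all its descendants transcribe the same rearranged variable gene at a high level. Plasma cells, which secrete antibody, hold far more immunoglobulin RNA than resting B cells. The variable gene encodes the leader peptide and the first framework and antigen-contact loops of the antibody, and the joined constant gene sets its class (IgM, IgD, IgG, IgE or IgA). Bulk RNA cannot tell fewer cells from less RNA per cell, and it cannot tell 1 large clone from several clones that use the same variable gene.

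GENCODE M21 on GRCm38, the build the reads were mapped to, placed all 183 members on the minus strand of chromosome 12, within chr12:113572927-116010093, on 1 side of the joining genes at chr12:113428514-113429833. By that annotation 113 were functional genes and 70 were pseudogenes, and their symbols fell into 16 families (the number before the hyphen). Most have a short leader exon and a second exon that holds the rest. The germline 3' ends of the second exon are shown for the 3 genes that led the TNF+ lungs (Ighv3-6 in TNF+ 1, Ighv1-80 in TNF+ 2 and Ighv1-81 in TNF+ 3) and for Ighv1-53, which led TNF- 1 and TNF- 3. Each is the last 300 bases, 5' to 3' on the coding strand, at chr12:114288152-114288451, chr12:115912344-115912643, chr12:115920279-115920578 and chr12:115158403-115158702 (minus strand), from the GENCODE M21 transcripts. Capitals mark the codon of the conserved cysteine and the bases after it, where the third antigen-contact loop (CDR3) begins.
Ighv3-6: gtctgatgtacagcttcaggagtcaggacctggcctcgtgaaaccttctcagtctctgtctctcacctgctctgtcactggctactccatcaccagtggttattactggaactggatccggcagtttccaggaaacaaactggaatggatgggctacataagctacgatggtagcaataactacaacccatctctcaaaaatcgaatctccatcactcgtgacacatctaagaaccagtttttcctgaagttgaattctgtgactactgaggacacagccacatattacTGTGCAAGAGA
Ighv1-80: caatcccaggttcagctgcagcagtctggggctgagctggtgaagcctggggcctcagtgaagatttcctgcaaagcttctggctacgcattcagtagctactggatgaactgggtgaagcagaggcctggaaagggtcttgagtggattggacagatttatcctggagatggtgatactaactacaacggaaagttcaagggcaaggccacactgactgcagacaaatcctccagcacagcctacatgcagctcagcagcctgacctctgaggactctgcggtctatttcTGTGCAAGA
Ighv1-81: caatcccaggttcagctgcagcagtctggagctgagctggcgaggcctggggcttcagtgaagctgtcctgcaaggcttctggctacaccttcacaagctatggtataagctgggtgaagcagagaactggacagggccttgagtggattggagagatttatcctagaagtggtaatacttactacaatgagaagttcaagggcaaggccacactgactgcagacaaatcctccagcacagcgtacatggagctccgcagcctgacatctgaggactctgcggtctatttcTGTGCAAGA
Ighv1-53: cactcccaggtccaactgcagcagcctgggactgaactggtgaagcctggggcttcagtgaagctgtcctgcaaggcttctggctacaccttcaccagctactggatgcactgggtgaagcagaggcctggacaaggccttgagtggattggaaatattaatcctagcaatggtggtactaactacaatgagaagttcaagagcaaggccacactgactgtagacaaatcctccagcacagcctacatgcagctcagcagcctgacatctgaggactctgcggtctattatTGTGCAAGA

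Over these bases Ighv1-80 was 89.0% identical to Ighv1-81 and 89.0% identical to Ighv1-53, and Ighv3-6 was 54.1% to 56.1% identical to the other three. The letters TGTGCAAGA, which spell cysteine, alanine and arginine and open the CDR3 of the 4 genes printed, stood on either strand of the last 300 bases in 64 of 113 functional members (56.6%) and in 21 of 70 pseudogenes (30.0%). They stood in 0.296% of 130870 other transcripts.

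All 3 TNF+ lungs carried more Ighv RNA than any TNF- lung. Reads on the 183 members came to 78646, 109767 and 51779 counts in TNF+ 1, 2 and 3, and to 1347, 1885 and 7975 in TNF- 1, 2 and 3. As CPM, counts relative to a fixed library size and scaled by edgeR's TMM factors, these were 3425, 3752 and 1616 against 42.3, 59.7 and 234. The groups did not overlap, and the lowest TNF+ lung stood 6.90 times above the highest TNF- lung. The means were 2931 ± 1151 and 112 ± 106 CPM (SD, n = 3), a ratio of 26.1. TNF- 3 was the high lung of its group, with the highest TNF- CPM for 94 of the 107 members tested, and without it the ratio was 57.4. Ighv reads made up 0.178% to 0.365% of all counts in TNF+ lungs and 0.00429% to 0.0246% in TNF- lungs.

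**Figure D1:**
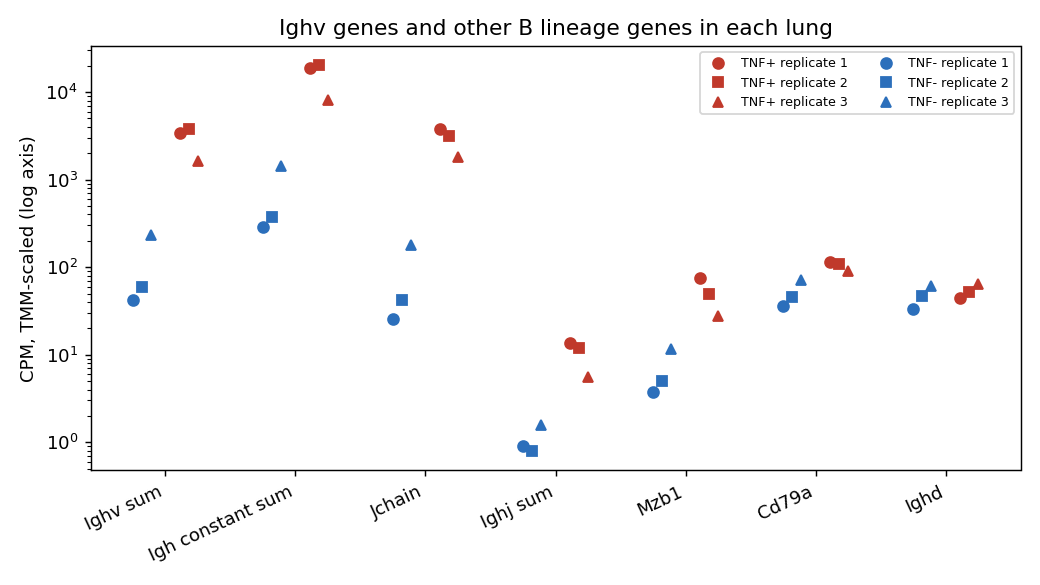
CPM (log axis) of the summed Ighv genes and of other B lineage genes, 1 point per lung, with TNF+ in red, TNF- in blue and the replicate as the symbol. The Ighv sum lies at 1616 to 3752 CPM in TNF+ lungs and 42.3 to 234 in TNF- lungs, as the Igh constant sum and Jchain do on their own scales, while Ighd overlaps between the groups.

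The other parts of the heavy chain differed between the groups in the same direction, with 1 exception. Of the 8 heavy chain constant genes, 7 were higher in TNF+ lungs (edgeR's quasi-likelihood test, Benjamini-Hochberg adjusted p under 0.05 over all genes), with log2 fold changes from 3.77 for Igha to 6.78 for Ighg1. Ighm, the IgM constant gene, had 135572, 336913 and 41274 counts in TNF+ lungs and 4843, 5929 and 8523 in TNF- lungs. Ighd, which mature naive B cells express beside Ighm, had 1033, 1506 and 2059 against 1058, 1483 and 2075, which overlap (log2 fold change 0.19 ± 0.22 SE, edgeR adjusted p = 0.509). All 4 joining genes were higher, by a median of 3.10 on the log2 scale. Jchain, which links IgM and IgA polymers in secreting cells, had 88106, 92989 and 57684 counts against 819, 1318 and 6068 (log2 fold change 5.16 ± 0.77 SE, edgeR adjusted p = 0.00103).

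Set against other B lineage genes, the Ighv counts were nearest in proportion to the constant counts. For every 100 counts on heavy chain constant genes there were 18.2, 18.5 and 19.8 Ighv counts in TNF+ lungs and 14.6, 16.0 and 16.2 in TNF- lungs. For every count on Ighd there were 76.1, 72.9 and 25.1 Ighv counts against 1.27, 1.27 and 3.84. For every 100 Jchain counts there were 89.3, 118 and 89.8 Ighv counts against 164, 143 and 131. None of the 3 ratios overlapped between the groups. TNF+ lungs were higher in the first, far higher in the second and lower in the third.

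The antibody class in which these segments were carried varied between lungs of 1 group. Igha took 41.1%, 17.2% and 69.0% of the constant counts in TNF+ 1, 2 and 3 and 28.1%, 28.5% and 72.1% in TNF- 1, 2 and 3. Ighm took 31.4%, 56.7% and 15.8% against 52.4%, 50.2% and 17.3%. The third lung of each group was thus the IgA-rich one, and the groups overlapped in both shares. Gene counts do not show which variable gene was joined to which constant gene.

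Markers of other cells moved with the Ighv counts, and their part in them was not tested. As a measure for the counts of genes called, 24.0% of all 19199 genes tested were called higher in TNF+ lungs and 23.4% were called lower. Of 10 plasma cell markers, 9 were higher in TNF+ lungs, and their summed level was 2341 to 4696 CPM against 411 to 604. Of 10 B cell markers, 5 were higher (382 to 409 CPM against 184 to 306). Of 7 T cell markers, 5 were higher, at 123 to 148 CPM summed against 58.7 to 109. Of 5 lymph node stroma and high endothelium genes, 3 were higher, at 869 to 1125 CPM summed against 175 to 205. Among these Madcam1, an adhesion molecule of mucosal high endothelium, was counted 115, 324 and 231 times in TNF+ 1, 2 and 3 and 0 times in each TNF- lung. Cxcl13 alone made up 563 to 765 CPM of the sum in TNF+ lungs. Glycam1 and Ccl21a were not called (edgeR adjusted p = 0.104 and 0.335), and the mean of Ccl21a was lower in TNF+ lungs (163 against 180 CPM). No marker of these 4 lists was at 0 in all 6 lungs.

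The tissue label was borne out by the 7 lung markers, which were high in every library (19934 to 44368 CPM summed), although 5 of them were lower in TNF+ lungs. TNF- 1 stood apart in 3 squamous epithelium genes, at 3287 CPM summed against at most 2.14 in the other 5 lungs, and in 4 skeletal muscle genes, at 1320 CPM against at most 31.6. The 3 fat cell genes, which did not pass the test (edgeR adjusted p = 0.197 to 0.436), summed to 7.27, 4.61 and 109 CPM in TNF+ 1, 2 and 3 and to 78.7, 57.3 and 129 in TNF- lungs, so that TNF+ 1 and TNF+ 2, the lungs highest in Ighv, were lowest in them. The part of fat in the Ighv differences was not tested. Of 6 thymus genes 2 had enough counts to test, and both (Cd1d1 and Themis) were higher. Rag1, Rag2, Dntt and Ptcra, too low to test, had at most 9 counts in any lung, that highest count being Rag1 in TNF- 1. Without TNF- 1 the ratio of Ighv CPM was 19.9. Of 9 genes of recombination, mutation and germinal centres only 4 had enough counts to test, and 0 were higher and 1 was lower, a share near that of all genes (Bcl6, log2 fold change -0.31 ± 0.11 SE, edgeR adjusted p = 0.0427).

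Of all 183 members, 135 had a higher CPM in every TNF+ lung than in every TNF- lung, and 0 had a lower CPM in every TNF+ lung. Over all 49568 rows of the table these shares were 13.6% and 12.3%, many rows being at or near 0. The edgeR filter on low counts left 107 members (95 functional, 12 pseudogenes) and removed 76 (18 functional, 58 pseudogenes). Many of the 107 passed it only through their TNF+ counts. Of the 107, 104 were called higher, against 24.0% of the 19199 genes tested, and 0 were called lower, against 23.4%. DESeq2 called 95 of the 104 higher and gave no p to 6, which it set aside as count outliers (Ighv1-31, Ighv1-78, Ighv2-6, Ighv5-4, Ighv5-15 and Ighv8-8), and the other 3 had adjusted p of 0.133 (Ighv1-2), 0.0548 (Ighv1-76), 0.0621 (Ighv5-16). It also called 0 lower, and at an unadjusted p under 0.05 edgeR had 105 higher and 0 lower. Among the 107, 102 did not overlap between groups, against 30.6% of all genes tested, and the 5 that did were Ighv3-1, Ighv1-20, Ighv1-62-2, Ighv1-71 and Ighv1-80. The 39 members with at least 10 counts in each of the 6 lungs did not depend on the TNF+ counts to pass, and all 39 were called higher, by a median of 4.55 on the log2 scale. The median over the 107 was 4.38, with a range of 1.90 to 7.64, beside 0.03 over all genes.

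The rises ran along the whole locus. With the members cut into 3 blocks of 61 by their order from the joining genes, the median log2 fold change of the tested members was 4.08, 4.17 and 4.59 from near to far. The far block took 43.8%, 55.1% and 45.3% of the Ighv counts in TNF+ lungs and 47.8%, 47.2% and 44.6% in TNF- lungs, which overlap.

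**Figure D2:**
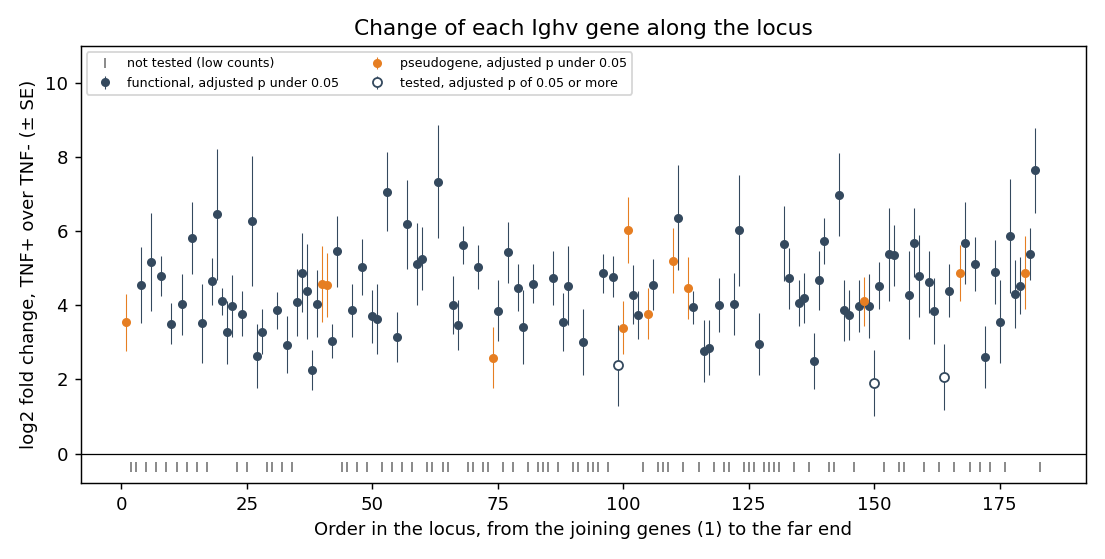
The log2 fold change of TNF+ over TNF- (± SE, edgeR) of each tested Ighv gene against its order in the locus from the joining genes, with ticks for the 76 members not tested. All 107 values lie above 0, between 1.90 and 7.64, from the near to the far end of the locus.

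The 3 tested members that were not called were Ighv1-20, Ighv1-62-2 and Ighv1-71, with edgeR adjusted p of 0.109, 0.110 and 0.0910, and they were chosen for mention after their values were seen. Ighv1-62-2 had 298, 184 and 58 counts in TNF+ lungs against 6, 112 and 63 in TNF- lungs, and Ighv1-71 had 294, 193 and 52 against 6, 104 and 52. TNF- 2 was the high lung for both among TNF- lungs, and the groups overlapped. Both genes have the same last 300 bases, and their 359 coding bases differ by a single substitution, T8G, counted from 1 at the first base of the Ighv1-62-2 start codon. The leader sequences, with that base in capitals, are shown because a read from the coding sequence that misses this base cannot tell the genes apart.
Ighv1-62-2: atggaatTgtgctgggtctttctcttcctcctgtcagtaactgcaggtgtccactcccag
Ighv1-71: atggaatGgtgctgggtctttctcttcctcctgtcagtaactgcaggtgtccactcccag

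The ratio of Ighv1-62-2 to Ighv1-71 counts stayed between 0.953 and 1.21 in the 6 lungs, so the counts of each were uncertain and are best read as a pair. The study's methods speak of unique mapping, under which a read that matches both genes would be counted for neither, but they do not give the counting setting for such reads. With the counts of both added, the pair held 11.5% of the Ighv counts of TNF- 2 (216 of 1885) and 0.212% to 1.44% in the other 5 lungs. With only the larger count kept, as if each read had been counted for both, it held 6.29% of TNF- 2 and at most 0.795% of the others. Shared sequence was also measured over all members as exact matches of germline sequence, which leaves out close but unequal copies. Of the 183 members, 25 shared at least 10% of their 100-base windows with another member, and for these the split of reads between copies is uncertain too. Ighv1-72 (42.8% of windows, with Ighv1-62-3) was the most used of them in TNF+ 3.

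More members were detected in TNF+ lungs, which also held more Ighv reads. With at least 3 counts taken as detection, TNF+ lungs held 134, 140 and 136 members and TNF- lungs 79, 88 and 105. Of the functional members, 105, 107 and 105 were detected against 78, 83 and 95, and of the pseudogenes 29, 33 and 31 against 1, 5 and 10. At an equal 1347 Ighv reads per lung, the depth of TNF- 1, the expected numbers were 70.8, 60.9 and 69.8 in TNF+ lungs and 79.0, 82.1 and 77.5 in TNF- lungs. The order of the groups was thus reversed at equal depth, where each TNF- lung showed more members than any TNF+ lung.

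Across the table, 15 members had no count in any lung and 36 had counts in TNF+ lungs alone. Another way to see the depth is that 129 members reached 3 counts in every TNF+ lung and 70 in every TNF- lung. Only 4 functional members stayed under 3 counts in all 6 lungs, namely Ighv1-16, Ighv1-24, Ighv2-7 and Ighv16-1. Ighv16-1, the sole member of its family, was at 0 throughout, which allows at most 0.131 CPM (3 counts in TNF+ 1, the lung with the smallest scaled library). Pseudogenes took 1.30% to 1.58% of the Ighv counts in TNF+ lungs and 1.34% to 2.18% in TNF- lungs. Ighv1-62 was the most counted of them in TNF+ lungs, with 373, 638 and 346 counts there and 11, 10 and 72 in TNF- lungs (log2 fold change 4.11, edgeR adjusted p = 0.00142).

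With Ighv1-62-2 and Ighv1-71 counted as 2 genes, a few segments took a larger part of the Ighv reads in TNF+ lungs. The effective number of genes (the inverse Simpson index, the number of equally used genes that would give the same concentration, which is little affected by depth) was 32.8, 22.0 and 36.0 in TNF+ 1, 2 and 3 and 43.9, 43.7 and 48.3 in TNF- 1, 2 and 3. The means were 30.2 ± 7.29 and 45.3 ± 2.59 (SD, n = 3), and the groups did not overlap. When Ighv1-62-2 and Ighv1-71 were counted as 1 gene with their counts added, TNF- 2 fell to 34.0 and the groups overlapped, since TNF+ 3 stood at 35.9. With only the larger count of the pair, TNF- 2 stood at 45.0 and the groups did not overlap, so the separation of the groups hangs on how shared reads were counted. If no read was counted for both genes, as unique mapping would have it, the added counts hold each read only 1 time, and on them the groups overlap. Under unique mapping, reads that match both genes would be missing from these counts. Without its most used gene, each TNF+ lung still had a lower value (37.7, 30.1 and 38.4) than each TNF- lung (54.2, 45.7 and 49.3), with the pair counted as 2 genes. The 10 most used genes took 45.3%, 52.8% and 43.3% of the Ighv counts against 35.3%, 38.1% and 35.1%. Of the Ighv counts, 50% lay on 13, 10 and 13 genes in TNF+ lungs and on 18, 16 and 18 in TNF- lungs.

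**Figure D3:**
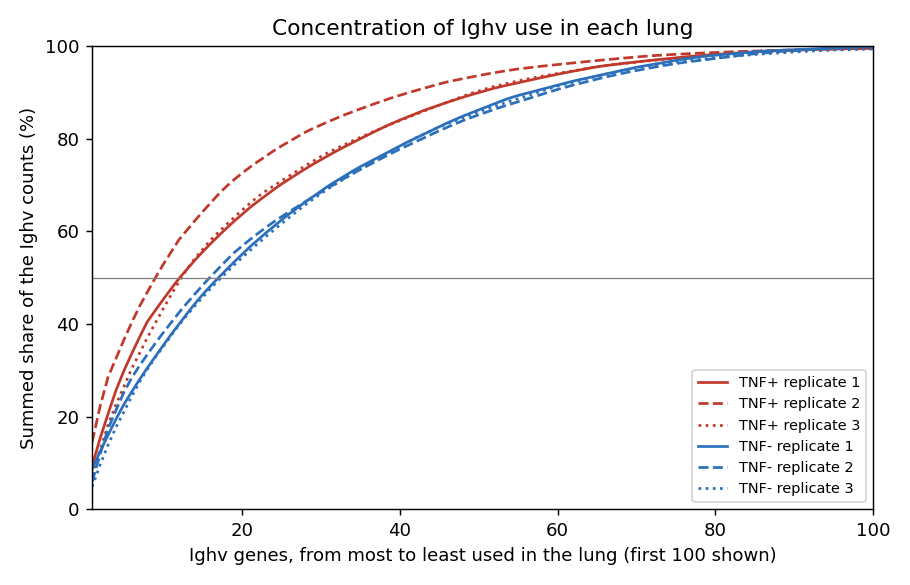
Summed share of the Ighv counts (%) against the number of genes, from the most to the least used in each lung, with 1 line per lung and a grey line at 50%. The TNF+ lines cross 50% at 10 to 13 genes and the TNF- lines at 16 to 18 genes, with TNF+ 2 the steepest.

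The most used gene was a different one in each TNF+ lung. In TNF+ 1 it was Ighv3-6, with 9.36% of the Ighv counts (95% exact binomial interval 9.16% to 9.57%). In TNF+ 2 it was Ighv1-80, with 14.5% (14.3% to 14.7%), and in TNF+ 3 it was Ighv1-81, with 7.42% (7.20% to 7.65%). These intervals cover counting error only. The leaders of TNF- 1, 2 and 3 were Ighv1-53 with 8.61% (7.17% to 10.2%), Ighv1-62-2 with 5.94% (4.92% to 7.11%) and Ighv1-53 again with 4.87% (4.40% to 5.36%). The share of the leading gene overlapped between the groups, at 10.4% ± 3.67 and 6.47% ± 1.93 (SD, n = 3), and the difference of 3.96 percentage points fell to 1.92 without TNF+ 2. With the counts of Ighv1-62-2 and Ighv1-71 added it was 2.12, since the leader of TNF- 2 then held 11.5%, more than the leaders of TNF+ 1 and TNF+ 3. With only the larger count of the pair it was 3.85, and that leader held 6.29%. With counts divided by exon length the same genes led all 6 lungs.

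**Figure D4:**
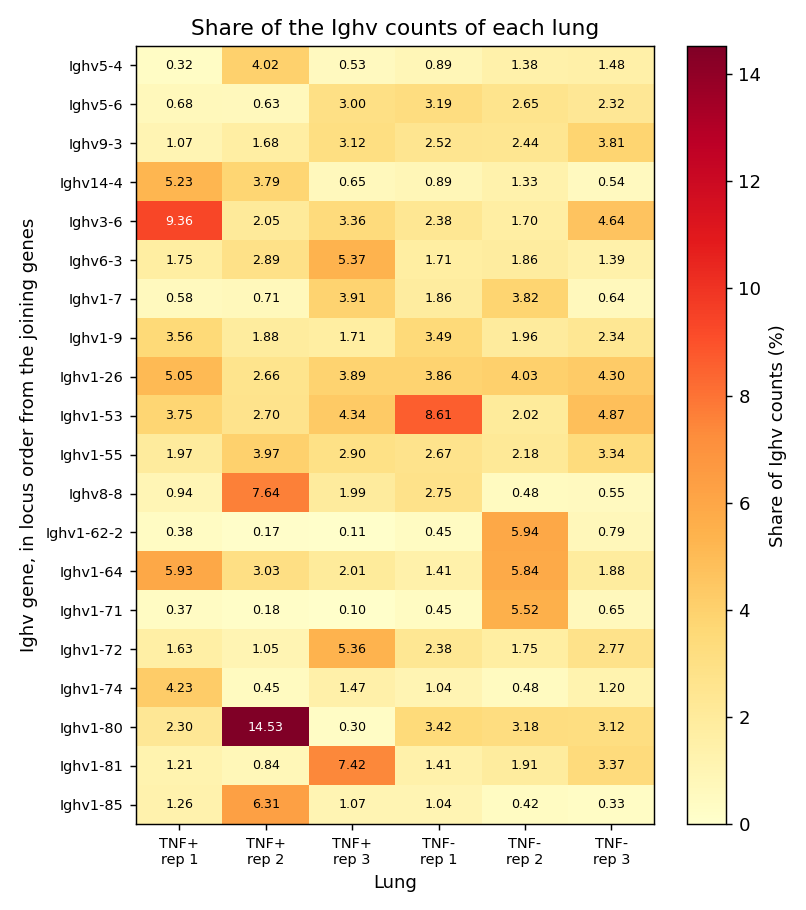
Share of the Ighv counts (%) of each lung for the 20 genes that were among the 5 most used in at least 1 lung, in locus order. The darkest cells are Ighv1-80 in TNF+ 2 (14.5%), Ighv3-6 in TNF+ 1 (9.36%), Ighv1-53 in TNF- 1 (8.61%) and Ighv8-8 in TNF+ 2 (7.64%), each in a different row.

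In TNF+ 1 the 5 most used genes were Ighv3-6, Ighv1-64, Ighv14-4, Ighv1-26 and Ighv1-74, which together took 29.8% of its Ighv counts. Ighv3-6 had 7363, 2248 and 1742 counts in TNF+ lungs and 32, 32 and 370 in TNF- lungs (log2 fold change 5.12 ± 1.10 SE, edgeR adjusted p = 0.00600). Ighv14-4 had 4112, 4158 and 338 against 12, 25 and 43 (7.07 ± 1.08 SE, edgeR adjusted p = 0.00111). Both rose, but the use of Ighv14-4 was high in 2 TNF+ lungs and low in the third. Ighv1-74 had 3327, 499 and 760 counts against 14, 9 and 96 and was high in TNF+ 1 alone. Ighv1-26, with 3974, 2925 and 2016 counts against 52, 76 and 343, was the steadiest of these, and it was among the 10 most used genes of 5 of the 6 lungs.

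In TNF+ 2 the 5 most used genes were Ighv1-80, Ighv8-8, Ighv1-85, Ighv5-4 and Ighv1-55, which took 36.5%. Ighv1-80 had 1807, 15945 and 153 counts in TNF+ lungs and 46, 60 and 249 in TNF- lungs. TNF+ 2 was far above the rest, TNF+ 3 lay below TNF- 3, and the ratio of the highest to the lowest TNF+ CPM was 114, the largest among tested members. It passed the test (log2 fold change 5.87 ± 1.53 SE, edgeR adjusted p = 0.0143) although the groups overlapped, and without TNF- 2 it did not (5.57, adjusted p = 0.0587), the fold being about as large. Ighv8-8 had 737, 8382 and 1028 counts against 37, 9 and 44. Ighv1-85 had 989, 6924 and 555 against 14, 8 and 26, the largest log2 fold change among members (7.64 ± 1.15 SE, edgeR adjusted p = 0.00104). Ighv5-4 had 252, 4417 and 275 counts against 12, 26 and 118. All 4 genes were far higher in TNF+ 2 than in the other lungs, and the call of Ighv5-4 (edgeR adjusted p = 0.0127) was lost without TNF- 2 (adjusted p = 0.0535), at a log2 fold change of 4.87 in place of 5.17.

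The nearest relatives of the leading genes ranked apart from them in some lungs and close to them in others. Ighv1-82, 96.0% identical to Ighv1-80 over the last 300 bases, had 2671, 1283 and 819 counts in TNF+ lungs, ranks 8, 23 and 19, where Ighv1-80 ranked 11, 1 and 59. In TNF- lungs Ighv1-82 ranked 9, 9 and 10, the last tied with Ighv1-9, and Ighv1-80 ranked 4, 6 and 7. Ighv3-1, 93.3% identical to Ighv3-6, ranked 27, 91 and 46 in TNF+ lungs, where Ighv3-6 ranked 1, 13 and 8. Ighv1-85, 92.7% identical to Ighv1-81, ranked 24, 3 and 27, where Ighv1-81 ranked 25, 29 and 1. Ighv1-72, 96.0% identical to Ighv1-53, ranked 18, 25 and 3, where Ighv1-53 ranked 6, 11 and 4, so that in TNF+ 3 the pair lay side by side.

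In TNF+ 3 the 5 most used genes were Ighv1-81, Ighv6-3, Ighv1-72, Ighv1-53 and Ighv1-7, which took 26.4%. Ighv1-81 had 950, 921 and 3843 counts in TNF+ lungs and 19, 36 and 269 in TNF- lungs (log2 fold change 4.31 ± 0.93 SE, edgeR adjusted p = 0.00601). Ighv6-3 had 1377, 3176 and 2780 against 23, 35 and 111 (5.63 ± 0.51 SE, edgeR adjusted p = 8.4e-05). Ighv6-3 was more even between the TNF+ lungs than Ighv1-81. Ighv1-72, the V186.2 gene of the C57BL/6 response to the hapten NP, had 1280, 1152 and 2776 counts against 32, 33 and 221. Ighv1-53, the leader of 2 TNF- lungs, had 2951, 2960 and 2249 counts against 116, 38 and 388 and was among the 10 most used of TNF+ 1 and TNF+ 3 as well.

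The size of several rises rested on the lung in which the gene was used most. Without TNF+ 2 the log2 fold change was 3.54 for Ighv1-80, 5.12 for Ighv8-8, 5.93 for Ighv1-85 and 2.64 for Ighv5-4. Without TNF+ 1 it was 3.89 for Ighv3-6 and 4.05 for Ighv1-74, and without TNF+ 3 it was 3.47 for Ighv1-81. Of these 7 genes, all kept a positive value when any single lung was left out. Without TNF- 3, the high TNF- lung, the median over the tested members was 5.62 in place of 4.38.

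The spread between TNF+ lungs was wide for most members. Of the 107 tested, 90 had a highest TNF+ CPM more than 2 times the lowest, 48 more than 5 times, 17 more than 10 times and 4 more than 50 times (Ighv1-80, Ighv3-8, Ighv2-6 and Ighv5-15). The median ratio was 4.37. The most even member was Ighv11-2, with a ratio of 1.23. The highest TNF+ level was in TNF+ 1 for 50 members, in TNF+ 2 for 47 and in TNF+ 3 for 10. The median biological coefficient of variation that edgeR fitted was 0.612 for tested members and 0.174 for all genes tested, and the median SE of the log2 fold change was 0.83 against 0.17.

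Several of the largest rises rested on 1 TNF+ lung or on few TNF- counts. Ighv3-8 had 1546, 3401 and 40 counts in TNF+ lungs against 2, 10 and 25 (log2 fold change 7.33). Ighv2-6 had 133, 3877 and 54 against 2, 6 and 44, and Ighv5-15 had 24, 819 and 16 against 4, 0 and 8, so that TNF+ 2 held most of the reads of both, and both calls were lost without TNF- 1 or without TNF- 2 (edgeR adjusted p = 0.0523 to 0.0669), with log2 fold changes of 5.72 to 6.27, close to those with all lungs. Without TNF+ 2 their log2 fold changes were 2.82 and 2.59, in place of 6.46 and 6.28, and the call of Ighv2-6 was lost there too (edgeR adjusted p = 0.0587). Ighv1-31 had 1152, 91 and 115 against 2, 2 and 18 and was highest in TNF+ 1 (log2 fold change 6.37, and 3.85 without that lung). The pseudogene Ighv1-21 had 18, 82 and 38 against 0, 0 and 2, Ighv1-43 had 135, 21 and 11 against 0, 0 and 3, and Ighv3-5 had 51, 20 and 10 against 0, 0 and 1. For these last 3 the summed counts, scaled by library, gave ratios of 79.8 (95% exact interval 21.7 to 665), 64.4 (21.6 to 315) and 93.7 (16.3 to 3744), counting error only. The TNF- depth could therefore not fix the size of these rises. Without the TNF+ lung highest in each, the log2 fold change was 5.34 for Ighv1-21, 3.91 for Ighv1-43 and 5.10 for Ighv3-5. With all lungs the values were 6.03, 6.02 and 6.18.

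The order of use in the functional members was similar in all lungs, while the leading genes were not. Over the 113 functional members Spearman's rho of the shares was 0.733 to 0.832 between pairs of TNF+ lungs, 0.777 to 0.833 between TNF- lungs and 0.725 to 0.860 across the groups, as a description across genes that share a library. Of the 10 most used genes, pairs of TNF+ lungs shared 1 to 3, pairs of TNF- lungs 3 to 7 and pairs across the groups 2 to 6. No gene was among the 10 most used of all 3 TNF+ lungs. In all, 24 genes were among the 10 most used of some TNF+ lung, 18 of them in a single lung. The part of the reads that would have to move to another gene to make the shares of 2 lungs equal was 0.391 to 0.503 within TNF+, 0.255 to 0.319 within TNF- and 0.290 to 0.466 across the groups. The smallest distance across the groups was that of TNF+ 3 and TNF- 3 (0.290, with 6 of 10 leading genes shared), the 2 IgA-rich lungs. The mean shares of the groups had a rho of 0.87 over the same 113 members.

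By family, Ighv1, the large family that holds 92 members and 53 of the 113 functional ones, took 61.3% ± 3.51 of the Ighv counts in TNF+ lungs and 64.5% ± 2.36 in TNF- lungs (SD, n = 3), which overlap. Ighv3 took 12.6%, 5.27% and 4.28% against 2.75%, 3.13% and 5.96%, and Ighv8 took 1.49%, 10.8% and 3.14% against 5.27%, 3.34% and 2.80%. Ighv3 was highest in TNF+ 1, where Ighv3-6 was the most used gene, and Ighv8 in TNF+ 2, where Ighv8-8 was among the 5 most used. Ighv14 took 7.06%, 6.12% and 1.75% against 1.86%, 2.71% and 3.07%. The CPM of every family with counts was higher in the TNF+ mean, by ratios from 6.04 for Ighv15 to 52.1 for Ighv14. The ratio of Ighv15 rested on few counts (21, 0 and 7 against 1, 4 and 1, which overlap) and was 1.75 without TNF+ 1. The order at the top rested on single lungs as well, since Ighv14 had a ratio of 139 and Ighv3 of 154 without TNF- 3, and Ighv14 had 40.3 and Ighv8 63.2 without TNF+ 1. The ratio of Ighv8 was 46.9 with all lungs and 14.2 without TNF+ 2.

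**Figure D5:**
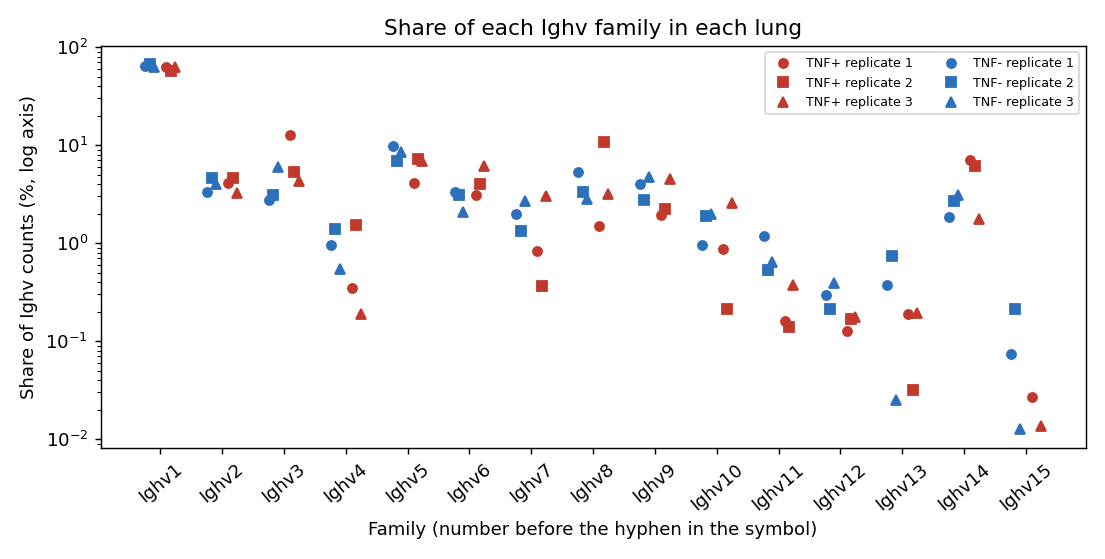
Share of the Ighv counts (%, log axis) of each family in each lung, with TNF+ in red, TNF- in blue and the replicate as the symbol. Ighv15 in TNF+ 2 and the family Ighv16 in all lungs are at 0 and are not drawn. Ighv1 lies at 57.2% to 67.1% in all 6 lungs, and Ighv11 and Ighv12 are the 2 families whose groups do not overlap, with lower shares in TNF+ lungs.

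Ighv11 and Ighv12 were the only families of the 16 whose shares did not overlap between the groups, a description with no test over shares that sum to the whole in each lung. Their members Ighv11-2 and Ighv12-3 are known from B-1 cells that bind phosphatidylcholine, a self-renewing B cell population of the body cavities. Ighv11 took 0.160%, 0.140% and 0.373% of the Ighv counts in TNF+ lungs and 1.19%, 0.531% and 0.639% in TNF- lungs. In TNF- 2 that share rested on 10 counts (95% exact interval 0.255% to 0.973%), which reaches below the TNF+ 3 share. Ighv12 took 0.127%, 0.167% and 0.178% against 0.297%, 0.212% and 0.389%, with 4 counts in TNF- 1 and 4 in TNF- 2, so the difference was not detectable in those lungs at this depth.

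In level these genes were nevertheless higher in TNF+ lungs. Ighv11-2 had 103, 111 and 150 counts in TNF+ lungs and 11, 7 and 33 in TNF- lungs (log2 fold change 3.05, edgeR adjusted p = 0.00105). Ighv12-3 had 100, 177 and 92 against 4, 4 and 31 (3.47, edgeR adjusted p = 0.00352). Ighv7-1, the T15 gene of antibodies to phosphorylcholine, had 36, 185 and 187 against 5, 8 and 46 (2.94, edgeR adjusted p = 0.0148), a call that was lost without TNF- 2 (2.58, adjusted p = 0.0557). Ighv5-2, also named 81X and favoured in early B cell development, had 7, 31 and 23 counts against 1, 0 and 6 and was too low to test.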

How the data were processed

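Raw gene counts of 6 whole lungs were used. The authors deposited raw read counts by gene symbol, with no normalization. Their libraries were stranded, poly(A)-selected and read single-end. The submitters' processing notes name Trimmomatic 0.36, STAR 2.5.2b, featureCounts and GRCm38.p5. The strand setting and gene annotation of the counting are not given in the sources used here, and reads across a V(D)J junction match the germline genome only in part, whose effect on the counts was not tested. Groups came from the sample labels.

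Counts were tested with edgeR 4.0.16 (R 4.3.3; filterByExpr, TMM, quasi-likelihood test, genotype as the only term), with Benjamini-Hochberg adjustment over all 19199 genes tested and a cutoff of 0.05. The SE of a log2 fold change was its absolute value over the root of the F statistic. Alternatives were DESeq2 1.42.0, other scalings and filters, a replicate block and each lung left out. The fit was tested on simulated data, where the share of false calls exceeded the cutoff, so calls near it are the least certain. Shares were taken within the Ighv counts of each lung. Detection at equal depth is an exact hypergeometric expectation. No test was run on sums, shares or indices over the members. With 3 lungs per group, an exact permutation test cannot go below p = 0.1. Biotypes, positions and sequences came from GENCODE M21.

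Named members were the 5 most used of each lung, the 10 largest rises past the cutoff without overlap, and 5 of textbook note (Ighv7-1, Ighv11-2, Ighv12-3, Ighv1-72 and Ighv5-2). Members, lists and tests were chosen with earlier results of these data known.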

Additional observations from a re-analysis of the deposited data

How the results depend on the processing

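The number of Ighv genes called higher was 104, and between 95 and 133 under 13 of 14 alternatives (DESeq2 115, of which 95 were among the 104, and replicate block 99). It was 39 of 39 tested with at least 10 counts in every lung, where fewer genes were tested. The count called lower was 0 throughout. The number of all genes called was 9096, and 4320 when a log2 change of at least 1 in size was required too. Leaving out each lung in turn gave 95 to 113 Ighv genes called, a median log2 fold change of 3.89 to 5.62 and a ratio of Ighv CPM of 19.9 to 57.4, both highest without TNF- 3. The difference in detected members was 46.0, was 20.3 without pseudogenes and was reversed to -12.4 at equal Ighv reads. The difference in the share of the leading gene was 3.96 percentage points. For the 5 leading genes it was 7.99, with Ighv1-62-2 and Ighv1-71 counted as 2 genes. With the counts of this pair added, the difference for the leading gene was 2.12 (3.85 with the larger alone). Adding the pair and keeping its larger count were chosen after seeing the data, as were shares per exon length. The effective number differed by -11.0 to -17.9 under the alternatives.

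Replicate numbers did not pair the lungs (correlations of same-numbered lungs -0.24 to -0.0043). With the replicate block, Ighv1-80 (adjusted p = 0.110), Ighv2-6 (0.0773) and Ighv5-15 (0.0525) lost their calls. Ighv1-62-2 and Ighv1-71 passed without a filter on low counts (adjusted p = 0.0463 and 0.0330), and Ighv1-71 passed without TNF+ 3 (0.0450). In TNF- lungs, with 1347 to 7975 Ighv counts, depth limited the shares of rare members.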
